A study of Mus musculus with 282 samples.

Results

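Clec4n, Clec4d, Clec4e, Clec7a and Marco encode pattern recognition receptors of myeloid cells. They were taken by gene identifier (ENSMUSG00000023349, ENSMUSG00000030144, ENSMUSG00000030142, ENSMUSG00000079293 and ENSMUSG00000026390, in that order) from the count tables, and are 5 of the 55450 gene identifiers there. They were chosen with their behaviour under TNF and across response classes known, so levels by stimulus and by response class are given as description. Where the calls of a test are counted for those contrasts, nothing is read from the counts. Cell cycle phase was not used to choose them, and was tested, though the share of the response classes differed between phases. The cells were single granulocyte-monocyte progenitors (GMPs), bone marrow progenitors of granulocytes and monocytes, from GFP-p65/H2BmCherry mice aged 12 to 19 weeks, male and female, genotype GFP-p65 homozygous and H2BmCherry heterozygous. In these mice the NfkB subunit p65 carries GFP and a histone carries mCherry. This genotype was common to all groups, so no group had untagged p65. Cells were followed for 8 h by confocal microscopy, picked singly and sequenced by Smart-Seq2, which reads polyadenylated RNA along the transcript.

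The authors' deposited cell tables listed 238 of the 282 samples with a stimulus, an NfkB response class and a cell cycle phase. TNF, a cytokine that activates NfkB, had been given to 178 cells. Of these, 51 were in an experiment with 1 plate among the samples, labelled Plate2 and called the 1-plate experiment here. The others were in an experiment with 2 plates. The cytokine entry was the word "blank", read here as no cytokine, for 60 cells, 16 and 44 in the same order. The classes compared were oscillatory TNF cells (20 in the 1-plate experiment, 36 in the other), transient TNF cells (25 and 51), non-responsive TNF cells (3 and 18) and non-responsive blank cells (13 and 34). Depth ran from 182301 to 3380416 gene reads in a cell (median 1339521), and 28 cells, 24 of them TNF cells and 26 of them on Plate2 of the 2-plate experiment, had fewer than 8000 detected genes. Cells are not replicates, so the experiment was the replicate (n = 2), and whether other animals or cultures were used in each is not in the labels. Levels are CPM, a gene's reads relative to all gene reads of the cell or group, scaled to a fixed total. Gene lengths were not used, so CPM values are compared between cells and not between genes. The GMP label was not checked against marker genes here, because the files do not pair identifiers with names.

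C-type lectin receptors of this family sit on myeloid cells and bind sugars and glycolipids of fungi and mycobacteria. Clec4n encodes Dectin-2, a receptor for mannans, and Clec4e encodes Mincle, a receptor for the mycobacterial cord factor. Both signal through the Fc receptor gamma chain to the kinase Syk and the adaptor Card9, which leads to NfkB. Clec4d encodes MCL, a partner of Mincle, and Clec7a encodes Dectin-1, a receptor for beta-glucans with its own intracellular signalling motif. Marco encodes a scavenger receptor of macrophages that takes up bacteria and particles. Clec4n, Clec4d and Clec4e lie side by side on chromosome 6, with 0 protein-coding genes between neighbours in the RefSeq annotation. Clec7a lies on the same chromosome with 106 protein-coding genes between it and Clec4e, and Marco lies on chromosome 1.

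The promoters are shown because the stimulus, TNF, acts through transcription factors with known sites, and the printed bases let those sites be looked for at each gene. RefSeq windows on GRCm38.p6 were matched for 4 of the 5 genes by symbol. The 250 bases before the start site are printed along the gene, from chr6:123261857-123262106 (plus strand) for Clec4d, chr6:123289872-123290121 (minus strand) for Clec4e, chr6:129472780-129473029 (minus strand) for Clec7a and chr1:120505025-120505274 (minus strand) for Marco. Capitals mark GAGGAA, the core of sites bound by PU.1, or its reverse complement. This motif was added after the sequences had been seen, and capitals do not mark NfkB sites, whose consensus had no match here.
Clec4d: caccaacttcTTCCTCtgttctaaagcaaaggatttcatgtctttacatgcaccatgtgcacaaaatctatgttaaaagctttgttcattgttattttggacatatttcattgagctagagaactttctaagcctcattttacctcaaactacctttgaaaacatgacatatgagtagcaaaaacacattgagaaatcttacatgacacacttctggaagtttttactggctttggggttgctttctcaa
Clec4e: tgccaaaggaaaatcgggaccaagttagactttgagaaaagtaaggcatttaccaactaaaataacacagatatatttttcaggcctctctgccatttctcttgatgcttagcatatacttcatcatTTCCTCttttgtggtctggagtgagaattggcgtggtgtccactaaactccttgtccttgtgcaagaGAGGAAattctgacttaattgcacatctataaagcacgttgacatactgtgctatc
Clec7a: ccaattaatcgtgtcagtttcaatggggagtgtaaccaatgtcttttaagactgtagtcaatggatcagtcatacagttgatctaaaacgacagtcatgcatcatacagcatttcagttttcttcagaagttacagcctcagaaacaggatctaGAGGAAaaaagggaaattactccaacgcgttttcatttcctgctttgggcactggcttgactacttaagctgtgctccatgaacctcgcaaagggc
Marco: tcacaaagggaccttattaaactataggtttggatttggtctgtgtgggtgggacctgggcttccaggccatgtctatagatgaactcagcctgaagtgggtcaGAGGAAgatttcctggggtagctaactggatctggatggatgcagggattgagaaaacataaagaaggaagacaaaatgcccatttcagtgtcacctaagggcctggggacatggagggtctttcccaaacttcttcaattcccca

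Motifs were searched on both strands from 250 bases before to 50 bases after the start site. The NfkB consensus, present in 5.14% of all 27025 genes with a window, the AP-1 motif TGANTCA (8.97%) and the long PU.1 motif GAGGAAGT (3.69%) had no match in these 4 promoters. Clec4e had a C/EBP motif, TTGCNNAA on the reverse strand 66 bases before the start (12.2% of genes), just ahead of the GAGGAA at position -56 and not overlapping it. Clec4e also had TATAAA 29 bases before the start (15.7% of genes), and Clec7a had TATAAA on the reverse strand, 43 bases into the transcript. GAGGAA was added after the sequences had been seen. It occurred in all 4 promoters and in 31.3% of genes, at position -240 in Clec4d, -123 and -56 in Clec4e, -96 in Clec7a and -146 in Marco, and 2 further times within the first 50 transcribed bases of Clec4d. The long PU.1 motif contains GAGGAA. A match describes letters in a window and not binding, and no match says only that those letters are not in that window.

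TNF cells had higher levels of the 3 neighbouring lectins than blank cells in both experiments, by the widest margin for Clec4n. Clec4n was at 487 CPM in the summed reads of TNF cells and 13.9 CPM in those of blank cells in the 1-plate experiment, and at 158 and 10.5 CPM in the 2-plate experiment. Clec4d was at 363 against 117 CPM and at 312 against 121 CPM. Clec4e was at 467 against 134 CPM and at 522 against 165 CPM. Clec7a did not keep a direction between experiments, and Marco was read in some TNF cells but in 0 blank cells.

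Clec4n differed most in how the cells were spread. In single TNF cells its lowest, median and highest levels were 0, 14.5 and 4284 CPM in the 1-plate experiment, against 0, 0 and 152 CPM in blank cells. The 2-plate experiment gave 0, 13.3 and 1779 CPM in TNF cells, against 0, 0 and 119 CPM in blank cells. The groups overlapped at the low end, and 12 and 31 TNF cells lay above the highest blank cell of their experiment. At least 1 read was found in 36 of 51 TNF cells (70.6%, exact 95% binomial interval 56.2% to 82.5%) against 5 of 16 blank cells (31.3%, 11.02% to 58.7%). The second experiment had 90 TNF cells with a read (70.9%, 62.1% to 78.6%) against 16 of 44 blank cells (36.4%, 22.4% to 52.2%). These intervals cover counting error over cells only. With each cell thinned to 458260 reads, which left out 24 shallower cells, the shares were 65.2% against 33.3% and 66.7% against 28.6%. The fitted log2 fold change of TNF over blank was 4.52 ± 0.31 (SE, edgeR, n = 2 experiments). A single blank cell held 78.8% of the Clec4n reads of blank cells in the 1-plate experiment, and without the highest cell of each group the ratio was 109-fold there and 19.0-fold in the 2-plate experiment, against 34.96-fold and 15.2-fold with all cells.

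Clec4d and Clec4e were already present in most blank cells, and TNF cells differed in level more than in detection. Clec4d had a read in 50 of 51 TNF cells and 13 of 16 blank cells, and in 98.4% of TNF cells and 42 of 44 blank cells of the 2-plate experiment. Its lowest, median and highest levels were 0, 302 and 1237 CPM in TNF cells and 0, 58.7 and 746 CPM in blank cells of the 1-plate experiment. Levels were then 0, 190.0 and 1347 CPM in TNF cells and 0, 46.6 and 1032 CPM in blank cells. The ranges overlapped widely, with 5 and 3 TNF cells above the highest blank cell, while 84.3% and 77.95% of TNF cells lay above the blank median.

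Clec4e, the cord factor receptor, had a read in 49 of 51 TNF cells and 15 of 16 blank cells, and in every TNF cell and 42 of 44 blank cells of the 2-plate experiment. Its lowest, median and highest levels were 0, 342 and 1735 CPM in TNF cells and 0, 42.8 and 725 CPM in blank cells of the 1-plate experiment. Cells of the 2-plate experiment were at 5.43, 319 and 2527 CPM in TNF cells and 0, 101.1 and 1131 CPM in blank cells. Of the TNF cells, 96.1% and 81.9% lay above the blank median, again with overlap of the ranges. The fitted log2 fold changes were 1.52 ± 0.14 for Clec4d and 1.75 ± 0.14 for Clec4e (SE, edgeR, n = 2 experiments). For Clec4e the value was 2.20 when only cells with 8000 or more detected genes were summed.

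Clec7a, the beta-glucan receptor, was at 45.3 CPM in TNF cells and 85.6 CPM in blank cells of the 1-plate experiment, and at 47.3 and 22.7 CPM in the 2-plate experiment. In the 1-plate experiment 1 blank cell at 1008 CPM gave 85.1% of the blank reads, and without the highest cell of each group TNF cells were 2.65-fold higher there and 2.22-fold higher in the 2-plate experiment. The same blank cell held the highest Clec4n and Clec4d levels of blank cells in the 1-plate experiment. Medians over cells were 10.96 CPM in TNF cells and 0.371 CPM in blank cells, and 4.92 and 3.52 CPM in the 2-plate experiment. A read was found in 36 of 51 TNF cells against 8 of 16 blank cells, and in 81 TNF cells (63.8%) against 28 of 44 blank cells (63.6%). The fitted log2 fold change was 0.09 ± 0.50 (SE, edgeR, n = 2 experiments).

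Marco, the scavenger receptor, had a read in 2 TNF cells of the 1-plate and 10 of the 2-plate experiment and in 0 of 60 blank cells, which allows a share of blank cells of up to 5.0%. The exact 95% interval over all TNF cells, 12 of 178, was 3.53% to 11.5%. The limit for blank cells lies within that interval, so no fold is given. A transient TNF cell in G2M on Plate2 of the 2-plate experiment, at 970 CPM with 1677 reads, gave 85.2% of the Marco reads of TNF cells in that experiment. The next cells were a non-responsive TNF cell of the 1-plate experiment with 261 reads (217 CPM) and one of the 2-plate experiment with 162 reads (66.97 CPM). The other 9 cells had 1 to 59 reads. In the 1-plate experiment 6 reads were left without the cell with 261 reads.

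**Figure D1:**
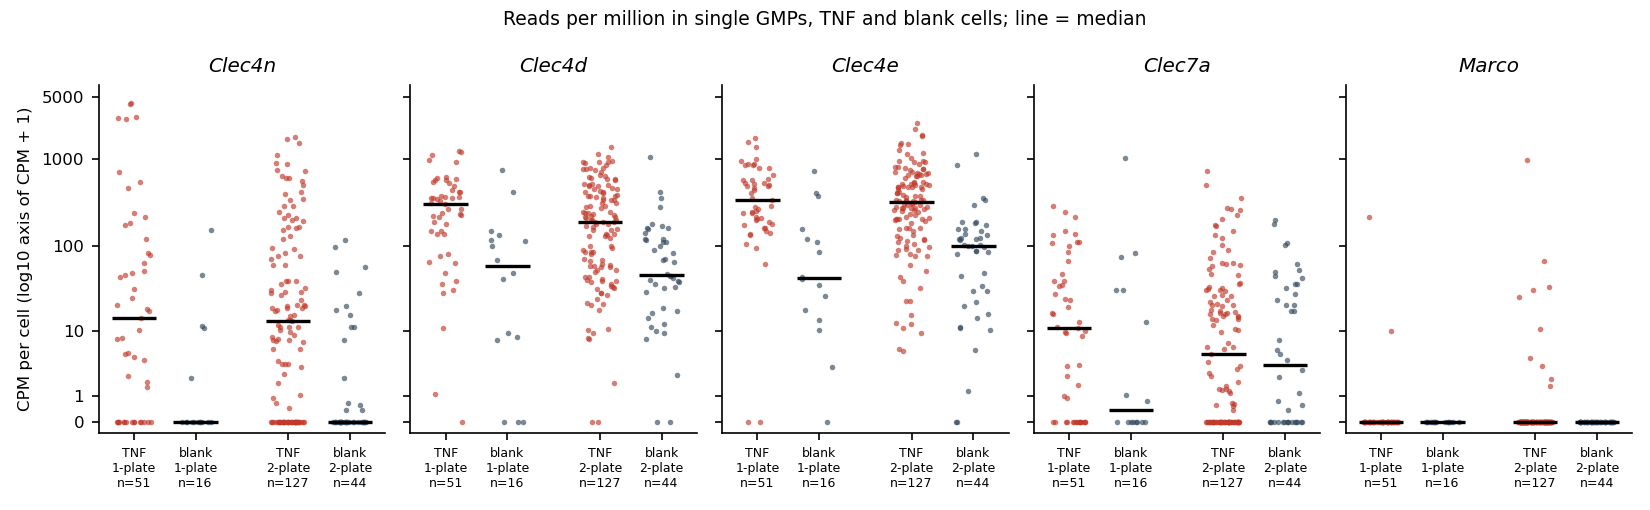
Each point is 1 cell, TNF cells in red to the left of blank cells in dark blue within each experiment; the vertical axis is CPM on a log10 axis of CPM + 1 and the line is the median. Clec4n in blank cells does not exceed 152 CPM while TNF cells reach 4284 CPM, Clec4d and Clec4e are shifted upward in TNF cells with overlap, and Marco has points above 0 in 12 TNF cells.

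All 5 genes passed the filter on low counts, and 3 of them, Clec4n, Clec4d and Clec4e, were called higher with TNF by edgeR at an adjusted p under 0.05. Over all 15479 genes tested, 0.446% were called in either direction and 0.413% were called higher with TNF. Since the genes were chosen with this contrast known, nothing is read from that count. It was 4 without a filter on low counts, where 367 of 26130 genes were called. It was 0 without Plate1 of the 2-plate experiment, where 1 of 14700 genes was called. Without the experiment as a term it was 0, and so was the number called over all 15479 genes. On Plate1, Clec4n was at 161 CPM in TNF cells and 6.42 CPM in blank cells, and on Plate2 at 155 and 14.4 CPM.

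Oscillatory TNF cells had higher Clec4n than transient TNF cells, while Clec4d and Clec4e differed less between oscillatory and transient cells. Clec4n was at 1083 CPM in oscillatory and 40.98 CPM in transient TNF cells of the 1-plate experiment, and at 259 and 61.1 CPM in the 2-plate experiment. In single oscillatory cells the lowest, median and highest levels were 0, 102 and 4284 CPM, against 0, 4.54 and 463 CPM in transient cells. For the 2-plate experiment they were 0, 33.5 and 1675 CPM in oscillatory cells and 0, 5.89 and 607 CPM in transient cells. The 2 classes overlapped from 0 upward, and reads were present in 16 of 20 oscillatory and 16 of 25 transient cells, and in 32 of 36 oscillatory and 32 of 51 transient cells of the second experiment. The 16 TNF cells that the authors' table enters as unclear, all in the 2-plate experiment, were at 312 CPM, with a lowest, median and highest cell of 0, 34.3 and 1779 CPM. Without the highest cell of each class, unclear cells were at 192 and oscillatory cells at 211 CPM. The fitted log2 fold change of oscillatory over transient cells was 3.41 ± 0.61 (SE, edgeR, n = 2 experiments), and its ratio was 4.72 (log2) in the 1-plate experiment, 2.08 in the other.

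Clec7a also had a higher level in oscillatory than in transient cells in both experiments, with overlap. It was at 83.3 CPM in oscillatory and 19.4 CPM in transient cells of the 1-plate experiment, and at 83.1 and 24.9 CPM in the 2-plate experiment. Its medians were 37.9 CPM in oscillatory and 3.43 CPM in transient cells, and 26.7 and 1.36 CPM in the 2-plate experiment. The ranges overlapped, with highest cells at 290 CPM (oscillatory) and 149 CPM (transient) in the 1-plate experiment and at 718 and 206 CPM in the 2-plate experiment. Its fitted log2 fold change was 1.93 ± 0.66, and 2.85 without Plate1 and 1.37 without Plate2 of the 2-plate experiment (SE, edgeR, n = 2 experiments).

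Clec4d was at 428 CPM in oscillatory and 321 CPM in transient cells, and at 417 and 230.0 CPM in the 2-plate experiment, a log2 fold change of 0.70 ± 0.15. Clec4e was at 599 and 401 CPM, and at 606 and 436 CPM, a log2 fold change of 0.58 ± 0.18 (SE, edgeR, n = 2 experiments for both). Both genes had reads in all 56 oscillatory cells. Marco was read in 1 of 20 oscillatory and 0 of 25 transient cells, and in 4 of 36 oscillatory and 4 of 51 transient cells of the second experiment. Of the 5 genes, 0 were called between oscillatory and transient cells, where edgeR called 0.199% of 16586 genes (0.163% as higher in oscillatory cells). DESeq2 called 3 of the 5, and 640 of 25825 genes in all. The genes were chosen with their levels by class known, and nothing is read from either count.

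Non-responsive TNF cells are those in which the authors' table records no NfkB response. Of these, 18 in the 2-plate experiment could be set beside 34 non-responsive blank cells. Clec4n was at 129 CPM in non-responsive TNF cells and 8.69 CPM in non-responsive blank cells, with a read in 12 of 18 against 13 of 34. A single TNF cell at 901 CPM gave 66.3% of those reads, and the ratio was 7.44-fold without the highest cell of each group, against 14.9-fold with all cells. Clec4d was at 345 CPM in non-responsive TNF cells and 116 CPM in non-responsive blank cells, and Clec4e at 577 and 117 CPM. Their ratios without the highest cells were 4.06-fold and 4.14-fold. Clec7a was at 24.2 CPM in non-responsive TNF cells and 17.7 CPM in non-responsive blank cells, and its ratio without the highest cells was 0.759, against 1.36 with all cells. The 1-plate experiment had 3 non-responsive TNF cells, with Clec4n at 32.2, 63.4 and 218 CPM, so this contrast has no replicate check.

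Both stimulated classes were also set against non-responsive blank cells. These comparisons share their blank cells. For oscillatory and then transient cells, the log2 fold changes were 5.62 ± 0.66 and 2.21 ± 0.58 for Clec4n, 1.89 ± 0.16 and 1.19 ± 0.15 for Clec4d, 2.20 ± 0.19 and 1.61 ± 0.18 for Clec4e, and 0.83 ± 0.68 and -1.10 ± 0.70 for Clec7a (SE, edgeR, n = 2 experiments). The blank cell at 1008 CPM gave 92.6% of the Clec7a reads of its group, and without the highest cell of each group, transient cells were 1.69-fold and 1.11-fold higher. Of the 5 genes, edgeR called 3 in oscillatory cells, where it called 2.35% of 16586 genes and 1.8% as higher, and 0 in transient cells, where it called 0.133% (0.115% as higher). In transient cells DESeq2 called 2 of the 5, and 324 of 25825 genes in all. As before, nothing is read from these counts. For Clec4n in transient cells of the 1-plate experiment, the ratio to non-responsive blank cells was 2.36-fold with all cells, 1.09-fold without the highest transient cell, which gave 55.9% of the transient reads, and 4.68-fold without the highest cell of each group.

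**Figure D2:**
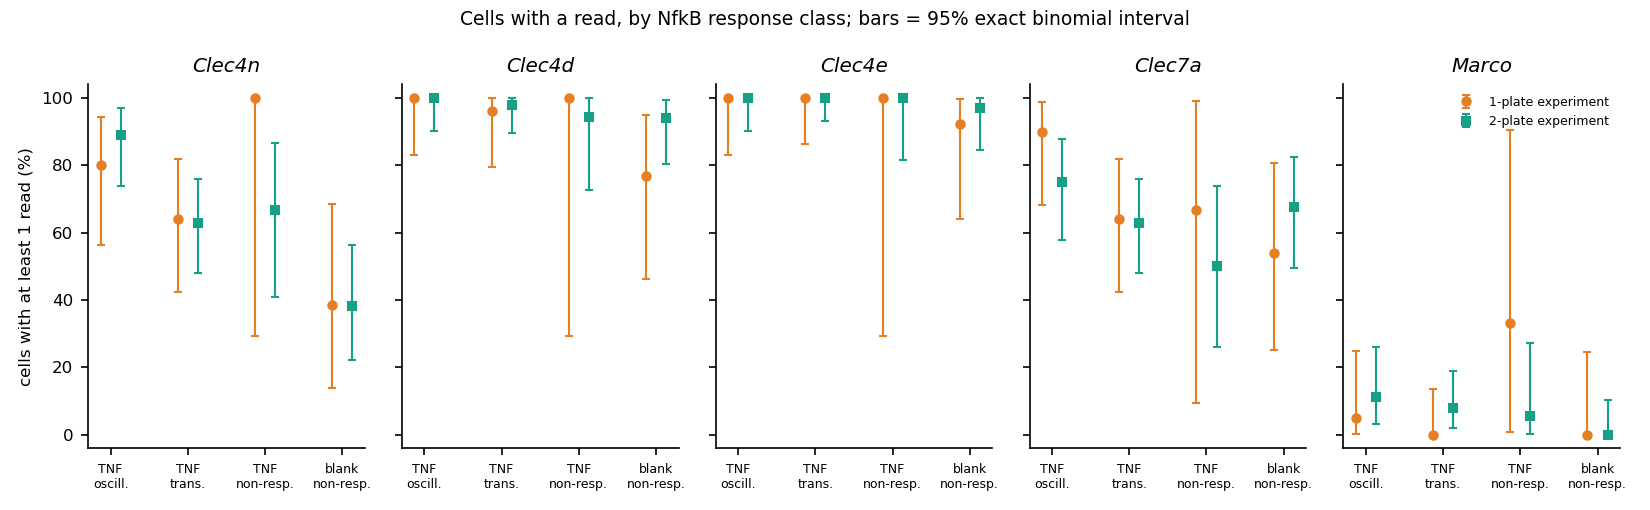
Share of cells with at least 1 read in oscillatory, transient and non-responsive TNF cells and in non-responsive blank cells (horizontal axis), as percent of cells with exact 95% binomial intervals, circles for the 1-plate and squares for the 2-plate experiment. Clec4n was read in 88.9% of oscillatory, 62.8% of transient and 38.2% of non-responsive blank cells of the 2-plate experiment, while Clec4d and Clec4e are at 76.9% or more in every group.

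**Figure D3:**
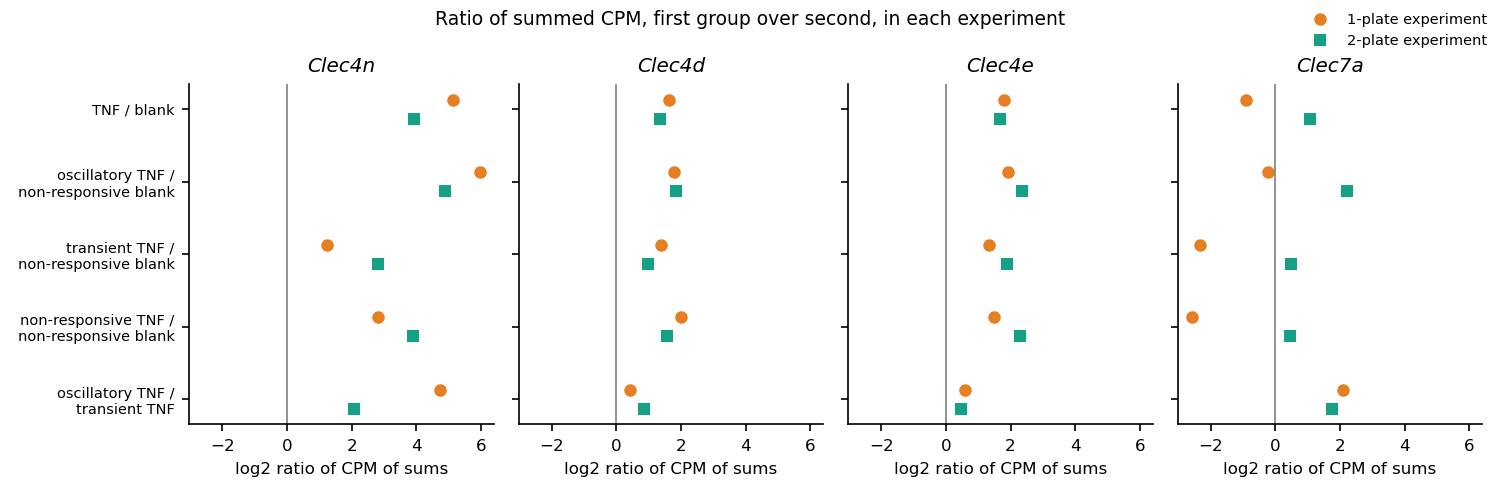
Log2 ratio of CPM of summed reads, first group over second, in the 1-plate experiment (circles) and the 2-plate experiment (squares) for 5 contrasts: TNF over blank, oscillatory and transient TNF over non-responsive blank, oscillatory over transient TNF, and non-responsive TNF over non-responsive blank. Clec4n, Clec4d and Clec4e lie above 0 in all 5 contrasts of both experiments, and Clec7a lies on both sides of 0 in the contrasts with blank cells but above 0 for oscillatory over transient cells (2.10 and 1.74).

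The 5 genes were next followed within cells. Of 178 TNF cells, 84 had reads of 4 of the genes and 10 had reads of all 5, against 18 and 0 of 60 blank cells. The number of cells without any of the 5 was 0 in either group. By Spearman correlation, Clec4n and Clec4d were the most closely related pair in TNF cells, at 0.70 over TNF cells of the 1-plate experiment and 0.60 over those of the 2-plate experiment (n = 178 cells in all). By Pearson correlation of log2 levels that pair gave 0.60 and 0.55, and Clec4n with Clec7a gave 0.44 and 0.62. Every cell with Clec7a also had Clec4d: 36 of 36 and 81 of 81 TNF cells, and 8 of 8 and 28 of 28 blank cells. Clec4d itself was found in nearly all cells, as given above. Clec4n without Clec7a was seen in 7 and 26 TNF cells, and Clec7a without Clec4n in 7 and 17.

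Clec7a correlated with Clec4n at 0.42 and 0.58 and with Clec4d at 0.40 and 0.54. Clec4e followed the others less closely, at 0.50 and 0.26 with Clec4n, 0.42 and 0.47 with Clec4d and 0.26 and 0.41 with Clec7a. The same pairs in blank cells gave 0.45 and 0.54 for Clec4n with Clec4d, and a higher 0.73 and 0.66 for Clec4d with Clec7a, over 16 and 44 cells. All points of an experiment share plates and differ in depth: the correlation with total reads was 0.17 and -0.01 for Clec4n, 0.02 and 0.24 for Clec4d, 0.10 and 0.45 for Clec4e and 0.09 and 0.31 for Clec7a. Among TNF cells of the 2-plate experiment with 8000 or more detected genes, Clec4n with Clec4d gave 0.71 and Clec4d with Clec4e 0.33.

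Clec4n in the 12 Marco cells ran from 0 to 4189 CPM. The cell with 1677 Marco reads had 201 CPM of Clec4n, 745 CPM of Clec4d, 1454 CPM of Clec4e and 91.3 CPM of Clec7a. Of the 12 cells, 11 had Clec4n reads and 10 had Clec7a reads, and all had Clec4d and Clec4e.

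**Figure D4:**
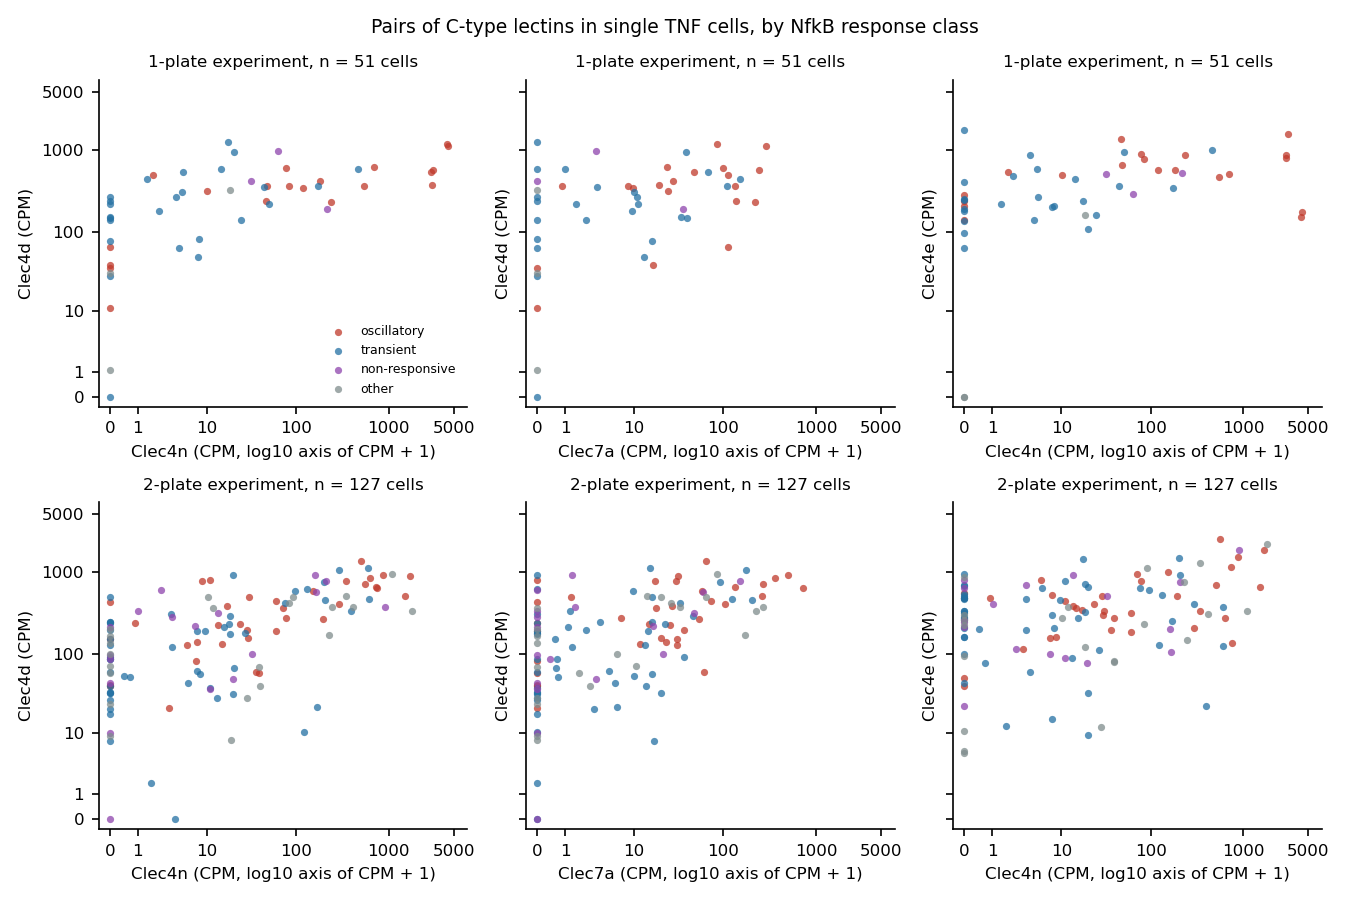
Each point is 1 TNF cell, coloured by NfkB response class (grey, any class other than the 3 named), with the CPM of one lectin on each log10 axis of CPM + 1, for the 1-plate experiment (upper row) and the 2-plate experiment (lower row). Cells high in Clec4n are also high in Clec4d (Spearman 0.70 and 0.60), and no cell has Clec7a without Clec4d. In cells without Clec4n reads, Clec4e reached 1735 CPM in the 1-plate and 939.6 CPM in the 2-plate experiment.

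Genes most like each lectin were sought among 10915 genes with a read in at least 20% of TNF cells of each experiment, ranked by the lower of the 2 correlations. For Clec4n the closest were ENSMUSG00000015568 (0.77 and 0.75) and ENSMUSG00000024610 (0.77 and 0.72), and Clec4d ranked 37. For Clec4d the closest was ENSMUSG00000005054 (0.80 and 0.80) and Clec4n ranked 44. Clec4e reached at most 0.57 and 0.59, with ENSMUSG00000025591, and Clec4d ranked 143 for it. For Clec7a the closest was ENSMUSG00000021939 (0.66 and 0.65), and Clec4n ranked 254. The median over all genes lay between -0.11 and -0.03 for these 4 lectins. The files do not pair these other identifiers with names.

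Cell cycle phase, as the authors' table gives it, was a division of the TNF cells that the choice of genes had not used. Of the 5 genes, 0 passed edgeR's test in G2M against G1, where 0.552% of 14859 genes were called (0.532% as higher), and 0 passed in S against G1, where 0.969% were called (0.417% as higher). DESeq2 called 1 and 4 of them, and 672 and 1438 of 25211 genes in all. At an unadjusted level, edgeR's p was under 0.05 for 3 of the genes in G2M and all 5 in S cells. Over all 14859 genes tested, it was under 0.05 for 1596 in G2M and 2455 in S cells. Marco, among the 5, had 0 reads in S cells, and nothing is read from its test there. It is among the 5 genes with p under 0.05 and the 4 called by DESeq2 in S against G1. The sums held 9 G1, 12 S and 30 G2M cells in the 1-plate experiment and 41, 23 and 63 in the 2-plate experiment.

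Clec7a came closest to the threshold. It was at 9.07 CPM in S cells and 79.96 CPM in G1 cells of the 1-plate experiment, and at 22.98 and 79.9 CPM in the 2-plate experiment, a log2 fold change of -2.39 ± 0.43 with an edgeR adjusted p of 0.0688. A single G1 cell held 64.6% of the G1 reads in the 1-plate experiment, and without the highest cell of each group S cells were at 0.083 and 0.222 of the G1 level. The adjusted p ranged from 5.20e-07 with DESeq2 to 0.244 without the experiment term. It passed with 5 of the 9 other settings. The oscillatory share differed between phases, with 4 of 35 S cells and 16 of 50 G1 cells. Within transient cells alone, Clec7a was at 4.31 CPM in S and 34.3 CPM in G1 cells of the 1-plate experiment but at 23.6 and 15.8 CPM in the 2-plate experiment.

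Clec4n was at 11.8 CPM in S cells and 1810 CPM in G1 cells of the 1-plate experiment, and at 54.7 and 285 CPM in the 2-plate experiment. Without the highest cell of each phase, S cells were at 0.00655 and 0.0435 of the G1 level. The log2 fold change was -4.59 ± 1.18 with an edgeR adjusted p of 0.136, which passed with DESeq2 (0.0118), without a filter on low counts (edgeR, 0.0121) and without Plate1 (edgeR, 0.0272). All 4 oscillatory G1 cells of the 1-plate experiment lay between 2852 and 4284 CPM, while the highest of the 4 transient G1 cells was at 20.5 CPM. The 14 oscillatory G2M cells there ran from 0 to 2985 CPM with a median of 81.3 CPM. The 12 oscillatory G1 cells of the 2-plate experiment ran from 0 to 1512 CPM (median 317 CPM) and the 22 oscillatory G2M cells from 0 to 1675 CPM (median 20.7 CPM). Within transient cells, S cells were at 13.1 and G1 cells at 3.17 CPM in the 1-plate experiment, and S cells at 82.1 and G1 cells at 49.6 CPM in the 2-plate experiment. A single S cell gave 89.2% of the last S value, and without the highest cell of each phase S cells were at 10.05 and G1 cells at 27.3 CPM, the opposite direction. The 3.17 CPM of transient G1 cells in the 1-plate experiment rested on 11 reads, 90.9% of them from 1 cell. For G2M against G1 the log2 fold change of Clec4n over all TNF cells was -2.49 ± 1.01 (edgeR adjusted p = 0.459).

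Clec4d had a log2 fold change of -0.79 ± 0.21 in G2M against G1 (edgeR adjusted p = 0.28) and of -0.76 ± 0.21 in S against G1 (adjusted p = 0.153). DESeq2 called both, at adjusted p = 0.0185 and 0.0189. Clec4e had 0.17 ± 0.22 in G2M (edgeR adjusted p = 0.831) and -0.58 ± 0.22 in S against G1 (adjusted p = 0.266), and was called with 0 of the settings in either comparison. Its median level in single cells was 215 CPM in G1, 245 CPM in S and 474 CPM in G2M cells of the 1-plate experiment, and 215, 276 and 413 CPM in the 2-plate experiment. The median of Clec7a in the 2-plate experiment was 1.27, 2.66 and 10.1 CPM in the same order. By median G1 was thus lowest, while by summed reads it was highest (79.9, 22.98 and 38.8 CPM). The upper quartile of cells was 72.6 CPM in G1 and 24.8 CPM in G2M.

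Marco had reads in 8 of 50 G1 cells, 0 of 35 S cells and 4 of 93 G2M cells of the TNF group. The count of 0 allows a share of S cells of up to 8.57%, and the exact 95% interval was 7.17% to 29.1% for G1 and 1.18% to 10.7% for G2M cells. The limit for S cells lies within the G1 interval, so no fold is given. With 0 reads in S cells, Marco passed the filter on low counts only through its G1 and G2M reads. Nothing is therefore read from its test in S against G1 (edgeR adjusted p = 0.0779). The reads were 273 in G1 cells, and 162 of them came from 1 cell. In G2M against G1 its fitted log2 fold change was 2.58 ± 0.86 (edgeR adjusted p = 0.401). In the 1-plate experiment the G2M reads came from 1 cell with 261 reads, and the ratio was 14.4-fold against 6 reads in G1 cells. In the 2-plate experiment the ratio was 3.02-fold, and 0.045-fold without the G2M cell with 1677 reads. Without Plate2 of the 2-plate experiment the fitted log2 fold change was -0.29 ± 3.17.

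**Figure D5:**
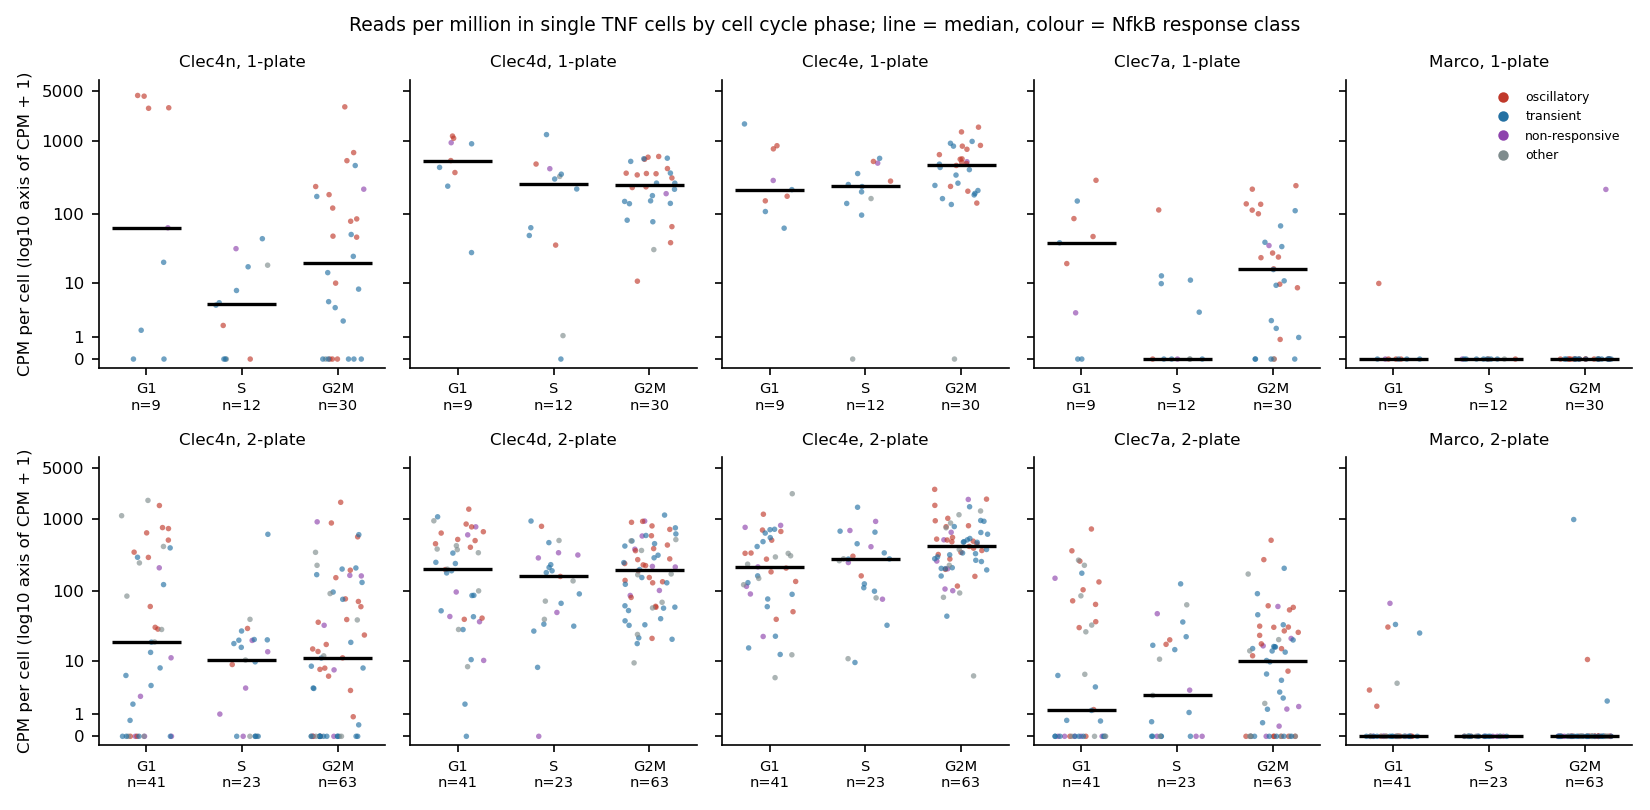
Each point is 1 TNF cell, by cell cycle phase in the order G1, S, G2M, with CPM on a log10 axis of CPM + 1, the median as a line and the colour for the NfkB response class (grey, any class other than the 3 named); the upper row is the 1-plate and the lower row the 2-plate experiment. The highest Clec4n values in G1 of the 1-plate experiment belong to 4 oscillatory cells, Clec4e medians are highest in G2M (474 and 413 CPM), and Marco has no point above 0 in S.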

How the data were processed

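Counts of reads per Ensembl gene were deposited by the authors as whole numbers, with SAMtools, featureCounts and Subread 1.5.0 named in the submitters' processing notes. No build, annotation or strand setting is stated in the sources used here, and reads of overlapping or near-identical genes cannot be told apart. The libraries have no molecular identifiers, so intervals and the limits from a count of 0 (3 counts) cover counting error only. Stimulus, class and phase are the authors' deposited entries. The rule behind them was not stated there. The 92 spike-in features were left out, 357 count columns that match no sample were not used, and 0 cells had identical columns.

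Counts were summed per experiment and group of at least 5 cells (4, 10 and 6 sums for stimulus, class and phase, with 1, 2 and 2 residual degrees of freedom) and tested with edgeR 4.0.16 in R 4.3.3. The test was quasi-likelihood, two-sided, with TMM factors, the default filter on low counts, the experiment as a term and Benjamini-Hochberg adjustment over all genes tested at 0.05. DESeq2 1.42.0 was an alternative. The scripts were tested on simulated data with known 4-fold and 8-fold changes. Across the comparisons, 52.7% to 63% of 4-fold and 63.3% to 76.7% of 8-fold changes were recovered. Of the calls, 8.81% to 16.4% were false, more than the set level of 0.05. The p-values measure only in part the spread between these 2 experiments, which may be technical. The rest is spread borrowed from other genes, with 4.64, 4.32 and 4.18 prior degrees of freedom for stimulus, class and phase. Each edgeR SE was derived from the fold change and the test statistic, so it holds the same borrowed spread.

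The members and lists were chosen with earlier results of these data known. All 5 members are described, and for each the 3 genes of most similar level across TNF cells were to be named; at most 2 identifiers are given because 0 of 55450 identifiers matched the reference gene table. The lists of signalling genes, other lectins and scavenger receptors, and cell type markers were set by symbol and are not analysed here. Promoter sequence is from RefSeq (GRCm38.p6). Summaries used Python 3.11.15, pandas 2.3.3 and scipy 1.17.1.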

Additional observations from a re-analysis of the deposited data

Results flagged for a closer look

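Within groups of 4 to 10 cells, 9 of 21 combinations of gene and group had a cell far from the others; chance alone gives about 1 in 20, and values that start at 0 and are mostly low produce such gaps readily. In G1 TNF cells of the 1-plate experiment (9 cells), the highest Clec4e cell was at 1735 CPM with the next at 869, and 1 cell had Marco at 10.02 CPM with the next at 0. In blank G2M cells of the 1-plate experiment (10 cells), the highest cell was at 46 CPM for Clec4n (next 11.4), at 414 CPM for Clec4d (next 151) and at 402 CPM for Clec4e (next 159). In blank oscillatory cells of the 2-plate experiment (5 cells), Clec4n was at 97.3 CPM in 1 cell (next 0) and Clec4e at 1131 CPM (next 186). In blank S cells of the 2-plate experiment (5 cells), Clec4n was at 20.2 CPM in 1 cell (next 0) and Clec7a at 104.3 CPM (next 2.94).

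Wells outside the authors' cell tables also held lectin reads. In 29 such wells of the 1-plate experiment the median of Clec4e was 96.4 CPM, above the 42.8 CPM of blank cells in that experiment. Their stimulus was not used here.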

How the results depend on the processing

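The number of called genes depended on the settings. Counts were judged by their relative change and fold changes by stimulus and class by the spread between experiments, so these are not compared. In the order TNF against blank, oscillatory and transient TNF against non-responsive blank, oscillatory against transient TNF, G2M against G1 and S against G1, edgeR called 69, 390, 22, 33, 82 and 144 genes. DESeq2 called 713, 1325, 324, 640, 672 and 1438, and the stricter filter (10 CPM in 50% of sums) gave 298, 732, 104, 259, 124 and 559. Without a filter the counts that moved were 367, 84, 156, 244 and 663 (all but the second). Without the replicate block, so unpaired, edgeR called 0, 34, 1, 0, 0 and 0. Sums per plate gave 50, 82, 184 and 730 for the last 4. Without Plate1 of the 2-plate experiment they were 1, 112, 8, 12 and 257 (G2M not moved), and without Plate2 177, 0, 30 and 20 for TNF against blank, oscillatory against transient, G2M and S.

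Of the 5 genes, 3, 3, 0, 0, 0 and 0 were called in that order. For TNF against blank this was 0 without the replicate block or without Plate1, where 0 and 1 of all genes tested were called. For oscillatory TNF against non-responsive blank it was 2 without Plate1 and 3 with each other setting. For transient TNF it was 2 without a filter, with the stricter filter or with DESeq2, and 1 with sums per plate or with cells of 8000 or more detected genes, a setting chosen after seeing the data. For oscillatory against transient TNF it was 1 without a filter, with the stricter filter or without Plate1, and 3 with DESeq2. For G2M it was 1 with DESeq2. For S it was 3 without a filter or without Plate1, 1 with the stricter filter or sums per plate, and 4 with DESeq2. The 4 include Marco, from whose test in S cells nothing is read. The block was the experiment, and the replicate numbers of single cells pair nothing.

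Leaving out 1 experiment gave log2 ratios of 3.92 to 5.13 for Clec4n, 1.36 to 1.64 for Clec4d, 1.67 to 1.81 for Clec4e and -0.92 to 1.06 for Clec7a in TNF against blank. Of the 209 other values of fold changes by stimulus and class, 159 moved by less than the spread between experiments. The 209 include the ratios of single experiments, from which that spread was taken, so for those the limit was no independent check. Genes that differed more between experiments also had a wider limit. Of 106 for the phases, 13 passed where the edgeR value had not, and 1 reversed, Marco in G2M against G1 without Plate2 (-0.29), the plate that holds the cell with 1677 Marco reads. Of 180 detection shares under thinning, 5 reads or single plates, 165 stayed within their exact intervals, and 36 of 40 correlations moved by less than 0.1. For Marco, 0 reads in a cell do not show absence.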

Other observations

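The 44 wells outside the cell tables had fewer reads than the listed cells, with medians of 359142 reads and 3763 detected genes in 29 wells of the 1-plate experiment and 25416 reads and 2382 genes in 15 wells of the 2-plate experiment. In the 1-plate experiment Clec4n was found in 10, Clec4d in 21, Clec4e in 19 and Clec7a in 10 of the 29 wells, with highest levels of 1109, 1123, 3209 and 2691 CPM. Marco was found in 0 of the 44. In the 2-plate experiment Clec4n was found in 1, Clec4d in 6, Clec4e in 8 and Clec7a in 0 of the 15 wells.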
